A study of Mus musculus and Homo sapiens with 12 samples.

Results

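The 10 genes described here encode the YAP and TEAD branch of the Hippo pathway: the co-activators YAP1 and WWTR1, the DNA-binding factors TEAD1 to TEAD4, the kinases LATS1 and LATS2, the scaffold AMOTL2 and the TEAD cofactor VGLL4. They were chosen as a gene family, with no peak value in the rule, and they are 10 of 20007 protein-coding genes in the human annotation and, by the same symbols in title case, 10 of 21887 in the mouse annotation. For each gene, the peaks that overlap its span and the 10 kb on either side were taken from 12 CUT&Tag peak lists. Within each library, peaks that touched or overlapped were joined into 1 region.

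The Hippo pathway is a kinase cascade that limits growth. LATS1 and LATS2 phosphorylate YAP1 and WWTR1 (also called TAZ), which are then held in the cytoplasm or degraded. Unphosphorylated YAP1 and WWTR1 enter the nucleus, bind TEAD factors and activate genes of proliferation and repair. AMOTL2 and the other angiomotins retain YAP1 at cell junctions, and VGLL4 competes with YAP1 for the TEADs. In the intestine the pathway is known for its part in the regeneration of the epithelium after injury and in colorectal tumours.

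CUT&Tag maps a histone mark by an antibody that tethers a transposase to the chromatin that carries it. The marks were butyrylation (bu) and acetylation (ac) of lysine 18 of histone H3 and of lysine 12 of histone H4. CCD841, a line from normal human colon epithelium, was treated with 1 mM sodium butyrate (NaBu) for 12 to 16 h, and 2 libraries were made for H3K18bu and 2 for H4K12bu, with no untreated library among them. Large intestine, labelled as colon epithelium, came from male CETP-ApoB-100 transgenic mice, with 2 mice per condition and no age in the sources used here. The labels give the 4 acetyl libraries a high-fat, high-sucrose diet and the 4 butyryl libraries the same diet with 5% arabinoxylan, a dietary fibre, so by the labels the acyl group and the diet cannot be told apart in the mouse. The diets themselves are uncertain, because the methods of the study describe a low-fat control group and a group that received arabinoxylan on top of the rich diet, and no other. Elsewhere the study describes the intestine profiled by CUT&Tag as that of arabinoxylan-fed mice, which can be read as covering both acyl groups, and the diet would then not differ between them. Which diet the acetyl libraries stand for could not be settled from these sources, and this bears on every comparison of acyl groups below. The mouse samples are bulk tissue, in which fewer cells of a type and less of a mark per cell cannot be told apart either.

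A region was counted as shared when merged peaks of the 2 replicates of a mark overlapped by at least 1 bp, and the shared region is their union. The strength of a peak is given by 3 values of the same list. The fold is the peak height over the local background of that library, each with 1 added, the −log10 p is the test of that height, and the pileup is the whole number of overlapping fragment ends that fold and p imply together. These values rank peaks within a list and are not levels that can be set against another list. With 2 libraries per mark the smallest two-sided exact p is 0.333, and the mouse libraries of a condition come from the same 2 animals, so no test between marks or conditions was made and all differences below are descriptions.

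The lists differed greatly in what stands behind a peak. The 4 CCD841 lists held 299296 to 299720 peaks, with median pileups of 15 and 12 for H3K18bu and of 15 and 7 for H4K12bu, and no peak had a pileup of 1. H4K12bu replicate 2 stood apart from the other CCD841 libraries, since 54.7% of its regions had a q below 0.05 against 100% in each of the others. The mouse acetyl lists held 299623 to 299861 peaks, of which 12.8% to 72.1% had a pileup of 1. The mouse butyryl lists held 50675 to 96432 peaks, of which 89.2% to 91.4% had a pileup of 1. A mouse butyryl peak thus stands mostly for 1 fragment end, whose counting error is as large as its value.

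The labels were set against marker genes. In CCD841 cells a shared H3K18bu region lay at the start of 1 of 12 genes of colon epithelium (VIL1), 3 of 10 genes of mesenchyme (COL1A2, FN1 and TWIST2) and 1 of 5 of smooth muscle (ACTA2). A shared H4K12bu region lay at 2 of 12 (KRT8 and KRT18), 1 of 10 (COL1A2) and 1 of 5 (ACTA2). Among all coding genes a shared region lay at the start of 31.4% for H3K18bu and 14.7% for H4K12bu. No list was tested. Genes without a shared start region of either mark included EPCAM, CDH1 and CDX2 of epithelium and VIM, COL1A1 and PDGFRB of mesenchyme. In mouse large intestine, epithelial genes had a shared region at the start in 5 of 12 for H3K18ac and 6 of 12 for H3K18bu, among them Krt8, Vil1, Cdx1 and Lgals4 for both marks. H4K12ac lay at 2 of 12 epithelial genes and H4K12bu at 1 of 12. Of 10 genes of mesenchyme, H3K18ac and H3K18bu each lay at 1 and the H4K12 marks at 0, and of 5 of smooth muscle H3K18ac lay at 1 and the other marks at 0. The shares over all mouse coding genes were 22.0% for H3K18ac, 6.31% for H3K18bu, 25.5% for H4K12ac and 15.4% for H4K12bu, beside 41.7%, 50%, 16.7% and 8.33% of the epithelial list.

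In CCD841 cells all 10 genes carried shared regions of both marks. The 10 windows held 122 shared H3K18bu regions and 125 shared H4K12bu regions. A window with at least 1 region was the common case, at 75.9% of all coding genes for H3K18bu and 76.6% for H4K12bu. The 10 windows span 1323 kb together, and the median window of all coding genes is 47.5 kb, so many of the 10 had more room for a region. The density of regions differed more from that of all coding genes. H3K18bu had 9.22 shared regions per 100 kb over the 10 windows and 4.76 over the windows of all coding genes, with medians of 8.53 over the 10 genes and 3.78 over all. H4K12bu had 9.45 per 100 kb and 5.11 over all, with medians of 8.85 and 4.56. For each mark 9 of the 10 genes lay above the median of all coding genes, the exceptions being LATS1 for H3K18bu and AMOTL2 for H4K12bu. Of the 125 H4K12bu regions 91 were shared also when each library was limited to peaks with a q below 0.05. The same limit left all 122 H3K18bu regions, but it could remove none, since 100% of the regions of both H3K18bu libraries had such a q.

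Start sites were marked by H3K18bu at 6 of the 10 genes, TEAD1, TEAD2, LATS1, LATS2, AMOTL2 and VGLL4, where a shared region reached within 1 kb of the outermost annotated start. Among all coding genes this held for 31.4%. With any annotated transcript start it was 7 genes, beside 44%. The TEAD2 region is centred at -1.31 kb, only reaches into the 1 kb limit, and cannot be given to TEAD2 apart from its neighbour DKKL1. H4K12bu marked the starts of 2 of the 10, LATS1 and VGLL4, beside 14.7% of all coding genes, and both marks lay together at these 2, beside 11.2% of all. The H4K12bu count depended on the definition: it was 1 gene, VGLL4, with q below 0.05, beside 11% of all coding genes, and 6 genes with any annotated transcript start, beside 35.5%. A start peak in each of the 4 libraries was listed for LATS1 and VGLL4 and for 12.3% of coding genes. TEAD3 and TEAD4 had a start peak in none of the 4 libraries.

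**Figure D1:**
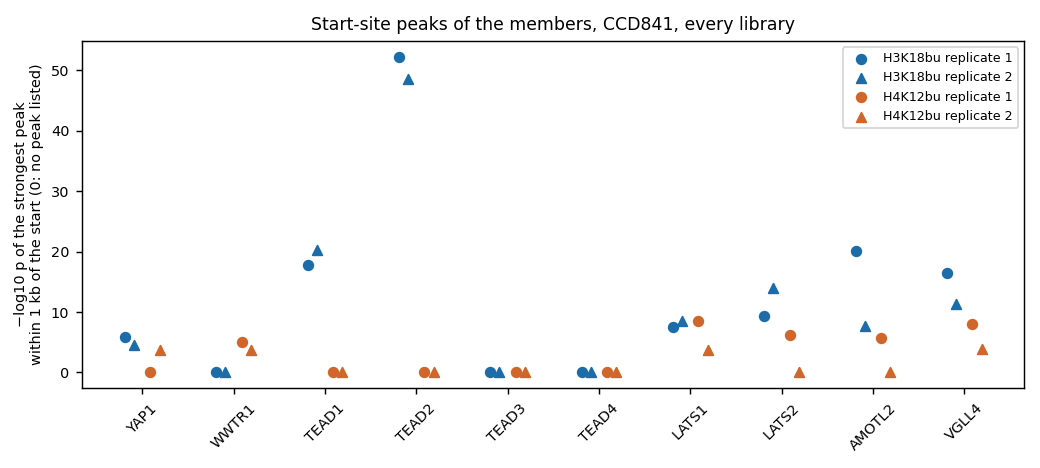
Strongest peak within 1 kb of the gene start of each gene, as −log10 p, in each of the 4 CCD841 libraries (circle replicate 1, triangle replicate 2, blue H3K18bu, orange H4K12bu), where 0 means that no peak was listed. TEAD2 reached 52.3 and 48.6 for H3K18bu, at a place that also lies near DKKL1 starts, and TEAD3 and TEAD4 were at 0 throughout.

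YAP1 lies at chr11:102110447-102233424 (hg38, plus strand). Its start had a peak in each H3K18bu replicate, with pileups of 10 and 7, but at different places, chr11:102110167-102110415 before the start and chr11:102110564-102110649 after it, so they formed no shared region. H4K12bu had a start peak in replicate 2 alone, with a pileup of 5. Its window held 8 shared H3K18bu and 11 shared H4K12bu regions, of which 7 and 9 lay on the gene itself. The strongest by the lower −log10 p of the replicates lay in an intron, 58.2 kb from the start for H3K18bu and 58.3 kb for H4K12bu. At chr11:102168528-102168782 H3K18bu had −log10 p of 17.5 and 12.6 and pileups of 26 and 19. At chr11:102168686-102168796 H4K12bu had 11.7 and 10.3 and pileups of 19 and 13. The marks coincided there, far inside the gene, while the start peaks had pileups of at most 10 and H4K12bu replicate 1 listed none.

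WWTR1 lies at chr3:149517235-149736714 (hg38, minus strand). No H3K18bu peak of either replicate lay at its outermost start, and the H4K12bu peaks there, with pileups of 9 and 5, did not overlap. Its window held 21 shared H3K18bu and 20 shared H4K12bu regions, of which 4 and 3 lay within 1 kb of the start of a shorter annotated WWTR1 transcript. At one such internal start, chr3:149542116-149543088, H3K18bu pileups were 18 and 23, and H4K12bu pileups at chr3:149542096-149542946 were 26 and 12. By the lower of the replicates, the strongest H3K18bu region of the gene was in an intron at chr3:149604557-149605377, with −log10 p of 17.8 and 13.8. For H3K18bu, WWTR1 was thus marked along its length and at some internal starts and not at the outermost one.

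TEAD1 lies at chr11:12674421-12944737 (hg38, plus strand) and is the longest of the 10 genes at 270.3 kb. Its start carried H3K18bu at chr11:12674073-12674742, with −log10 p of 17.8 and 20.2 and pileups of 24 and 26, at the 95.9th and 98.1th percentile of the start values of all coding genes in the 2 libraries. No H4K12bu peak lay at that start in either replicate. Its window held 32 H3K18bu and 29 H4K12bu regions, and 16 of the 32 overlapped an H4K12bu region. The intron region at chr11:12813759-12814972 had the highest pileups of the gene for H3K18bu, 44 and 43.

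TEAD2 lies at chr19:49340595-49362457 (hg38, minus strand). The region with the highest −log10 p of all 122 lay upstream of it, with its midpoint at -1.31 kb from the start, at chr19:49363422-49364120, with H3K18bu −log10 p of 52.3 and 48.6 and pileups of 58 and 50. These start values were at or above the 99.95th percentile of coding genes in both libraries. H4K12bu lay at the same place, chr19:49363471-49364035, with −log10 p of 33.0 and 20.2 and pileups of 37 and 21. H4K12bu there falls just outside the 1 kb used for starts and is not counted as a start region. The place also lies within 1 kb of annotated transcript starts of DKKL1, a gene on the other strand that overlaps the first part of TEAD2, so the peak cannot be given to TEAD2 alone. Inside the TEAD2 gene there was no shared H3K18bu region.

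TEAD3, at chr6:35473597-35497079 (hg38, minus strand), had 5 shared regions of each mark in its window. For H3K18bu the strongest was in an intron at chr6:35484769-35485854, with pileups of 32 and 21, and 2 of the 5 lay at the start of the neighbouring ribosomal protein gene RPL10A. TEAD4, at chr12:2959330-3040676 (hg38, plus strand), had 8 H3K18bu and 17 H4K12bu regions in its window. The highest H4K12bu pileups of the 10 genes, 75 and 32, lay in a TEAD4 intron at chr12:3018642-3019175. The TEAD4 intron region at chr12:2998788-2999513 had H3K18bu −log10 p of 27.9 and 23.5. At 16.8 shared H4K12bu regions per 100 kb, TEAD4 was above 96.3% of coding genes, and at 7.89 for H3K18bu it was above 77.9%.

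LATS1 and LATS2, the kinases that inactivate YAP1 and WWTR1, carried H3K18bu at their starts. LATS1, at chr6:149658153-149718105 (hg38, minus strand), carried H3K18bu at its start with pileups of 11 and 11 and H4K12bu with pileups of 17 and 6. With peaks of a q below 0.05 alone, the H4K12bu region at the LATS1 start was no longer shared. The LATS1 window held 2 H3K18bu and 6 H4K12bu regions, and the stronger of its H3K18bu regions, at chr6:149648501-149648905, lay at the start of the neighbouring gene KATNA1. LATS2, at chr13:20973036-21061586 (hg38, minus strand), carried H3K18bu at its start with pileups of 16 and 20, and H4K12bu there was listed in replicate 1 alone, with a pileup of 10. Of the 9 regions per mark in its window, the strongest for H3K18bu, at chr13:21004901-21005448 with pileups of 26 and 26, lay inside the gene at the start of the antisense transcript LATS2-AS1, where H4K12bu pileups were 33 and 10.

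AMOTL2, at chr3:134355347-134375479 (hg38, minus strand), had the widest gap between the marks in the density of shared regions, and not in the regions of single libraries. Its window held 7 shared H3K18bu regions and 1 shared H4K12bu region, although single libraries listed 10 and 8 regions there for H3K18bu and 7 and 9 for H4K12bu. The TEAD4 libraries listed 13 and 17 for H3K18bu and 35 and 28 for H4K12bu, and the LATS1 libraries 3 and 4 and 15 and 17. At 17.4 per 100 kb for H3K18bu it was above 98.4% of coding genes, and at 2.49 for H4K12bu above 34.3%. The start region at chr3:134374262-134374894 had H3K18bu −log10 p of 20.1 and 7.67 and pileups of 36 and 18. A stronger pair of values, 23.2 and 16.3, lay upstream, at -6.73 kb from the start, at chr3:134381902-134382521. The shared H4K12bu region did not remain when the lists were limited to q below 0.05.

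VGLL4, at chr3:11556069-11771350 (hg38, minus strand), had 28 H3K18bu and 22 H4K12bu regions in its window, and its start carried both marks, with pileups of 27 and 20 for H3K18bu and of 18 and 7 for H4K12bu. Of the 28 H3K18bu regions 5 lay within 1 kb of an internal VGLL4 start, among them chr3:11568047-11569040 with pileups of 45 and 38 and chr3:11603852-11604492 with 29 and 32. The intron region chr3:11600440-11601104 had the highest H3K18bu −log10 p inside any of the 10 genes, 34.6 and 30.4. The highest lower value for H4K12bu in VGLL4 was at chr3:11656012-11657223, with 18.6 and 18 and pileups of 36 and 25.

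**Figure D2:**
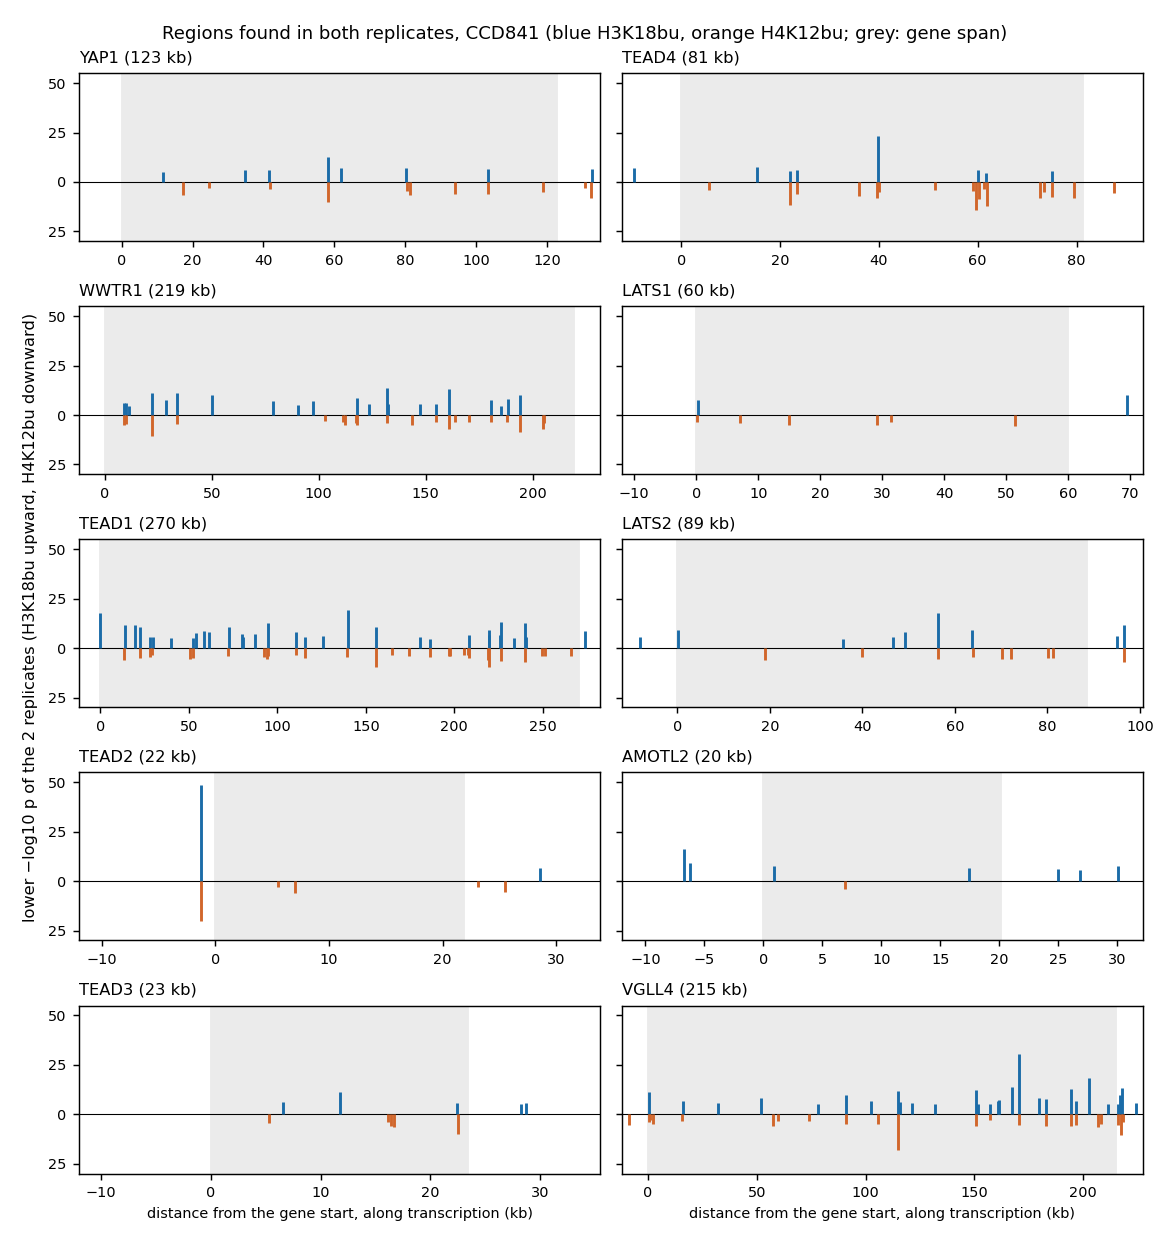
Shared regions along each gene in CCD841, with the distance from the gene start along transcription in kb on the x axis, the gene span in grey, and the lower −log10 p of the 2 replicates as the length of each line, upward for H3K18bu and downward for H4K12bu. The tall line at -1.31 kb from the TEAD2 start reaches 48.6 for H3K18bu, and TEAD1, WWTR1 and VGLL4 carry regions over their whole length.

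Most shared regions lay in introns, as does most of the sequence searched. Introns held 94 of 122 H3K18bu regions, 77.0%, and 98 of 125 H4K12bu regions, 78.4%, and they make up 80.2% of the bases of the 10 windows. Exons, 4.64% of the bases, held 2 H3K18bu regions (1.64%) and 10 H4K12bu regions (8%). Regions with a midpoint within 1 kb of a gene start were classed as start regions first and left out of the exon and intron counts. The base shares keep the bases near starts in exon, intron or flank, so the 2 kinds of share are not like for like. Within 1 kb of the gene's own outermost start, by the midpoint of the region, lay 5 H3K18bu and 2 H4K12bu regions. The outermost starts of other genes accounted for 5 and 4. The regions of both marks upstream of TEAD2, near annotated DKKL1 transcript starts, are not among these 5 and 4.

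The marks overlapped in somewhat less than 1 region in 2. Of the 122 H3K18bu regions 45.9% overlapped a shared H4K12bu region, beside 34.4% of all 108535 H3K18bu regions of the genome. Of the 125 H4K12bu regions 46.4% overlapped a shared H3K18bu region, beside 41.8% of all 90471. When a peak in either replicate of the other mark was enough, the shares were 77.9% and 70.4%, beside 64.3% and 61.8%. Replicates overlapped to a like degree: 57.1% and 57.9% of the regions of each H3K18bu replicate at these genes overlapped the other replicate, and 49.4% and 49.7% for H4K12bu. Over the whole H3K18bu lists 54.7% and 52.5% overlapped, and over the whole H4K12bu lists 45% and 37.6%.

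Sequence was searched for the core bound by TEAD factors, GGAATG, and for the AP-1 motif TGANTCA, bound by FOS and JUN proteins that often lie beside TEADs, in the 200 bases around the middle of each region and on both strands. Neither motif contains the other, and N is any base. GGAATG was in 21 of 122 H3K18bu regions, 17.2%, beside 13.6% of all H3K18bu regions, and in 14 of 125 H4K12bu regions, 11.2%, beside 11.9%. TGANTCA was in 9 H3K18bu regions, 7.38%, beside 10.8%, and in 11 H4K12bu regions, 8.80%, beside 8.35%. These shares lay near those of all regions. A match of letters is not a bound site.

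The strongest H3K18bu regions of the 10 genes that hold either motif and no annotated exon are shown with the region at the VGLL4 start, to let the sequence under the peaks be read. All are the plus strand of hg38, with the TEAD core or AP-1 motif in capitals on either strand. They are the VGLL4 start at chr3:11770713-11770912, which holds neither, the VGLL4 intron at chr3:11600672-11600871 and the TEAD4 intron at chr12:2999051-2999250, which hold both motifs, and the TEAD1 intron at chr11:12900674-12900873, a second VGLL4 intron site at chr3:11576725-11576924 and the YAP1 intron at chr11:102168555-102168754, which hold the TEAD core.
VGLL4 start: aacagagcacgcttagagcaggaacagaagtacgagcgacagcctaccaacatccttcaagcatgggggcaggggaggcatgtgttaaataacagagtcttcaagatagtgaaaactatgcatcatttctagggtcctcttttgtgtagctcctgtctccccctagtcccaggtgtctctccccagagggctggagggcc
VGLL4 intron: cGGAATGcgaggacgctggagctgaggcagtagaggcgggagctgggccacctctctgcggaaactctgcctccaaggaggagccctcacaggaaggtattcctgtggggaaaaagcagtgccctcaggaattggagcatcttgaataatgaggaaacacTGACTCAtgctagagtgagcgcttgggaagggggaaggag
TEAD4 intron: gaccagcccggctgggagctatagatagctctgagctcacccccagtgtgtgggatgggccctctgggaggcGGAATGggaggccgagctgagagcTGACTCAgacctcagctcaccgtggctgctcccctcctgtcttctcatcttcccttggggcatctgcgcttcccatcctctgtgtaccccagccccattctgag
TEAD1 intron: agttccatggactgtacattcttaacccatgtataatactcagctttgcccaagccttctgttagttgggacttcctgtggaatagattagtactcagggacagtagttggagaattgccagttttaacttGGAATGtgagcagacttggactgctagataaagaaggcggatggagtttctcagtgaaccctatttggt
VGLL4 second intron site: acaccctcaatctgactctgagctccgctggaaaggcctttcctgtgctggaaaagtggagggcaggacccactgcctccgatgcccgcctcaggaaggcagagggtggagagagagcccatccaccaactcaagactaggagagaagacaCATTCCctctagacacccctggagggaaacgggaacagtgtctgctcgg
YAP1 intron: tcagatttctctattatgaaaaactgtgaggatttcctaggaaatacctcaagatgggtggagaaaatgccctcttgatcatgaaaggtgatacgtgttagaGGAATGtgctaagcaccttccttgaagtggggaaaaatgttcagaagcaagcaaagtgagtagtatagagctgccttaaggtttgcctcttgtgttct
The YAP1, TEAD1, TEAD4 and VGLL4 introns each hold the letters of the TEAD core under a shared H3K18bu peak. At all 5 of the intron sites H4K12bu overlapped the H3K18bu region as well.

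The rest of the pathway was taken from 2 lists. Of 23 upstream genes, such as the kinases STK3 and STK4 (MST2 and MST1), SAV1, NF2 and the TAO kinases, 8 had a shared H3K18bu region at the start and 4 a shared H4K12bu region, 34.8% and 17.4%, close to the shares of all coding genes, 31.4% and 14.7%. The highest lower −log10 p for H3K18bu were 10.4 at the cadherin gene FAT4, 9.72 at TAOK3 and 8.59 at PTPN14, and for H4K12bu 6.98 at TAOK3, 6.67 at STK4 and 5.87 at NF2. Of 22 partners and targets, 11 had H3K18bu at the start, 50.0%, among them CCN1, CCN2 and ANKRD1, the targets used most often as readouts of YAP1. H4K12bu was at 4 of the 22, 18.2%. The highest lower values were those of VGLL3 (23.4), TGFBR1 (13.3) and ANKRD1 (13.1) for H3K18bu, and of VGLL3 (5.45), RBMS3 (5.28) and ANKRD1 (4.67) for H4K12bu. In the mouse the upstream list had a shared start region at 3 genes for H3K18ac, 3 for H3K18bu, 6 for H4K12ac and 3 for H4K12bu, which is 13%, 13%, 26.1% and 13% of the list. The list of partners and targets had one at 4, 1, 4 and 3 genes, 18.2%, 4.55%, 18.2% and 13.6%. Among all mouse coding genes the shares for these marks were 22.0%, 6.31%, 25.5% and 15.4%.

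In mouse large intestine the same 10 genes carried fewer shared regions, in lists that were far shallower. Their windows held 37 shared H3K18ac, 30 shared H4K12ac, 7 shared H3K18bu and 4 shared H4K12bu regions. At least 1 region lay at 9 of the 10 genes for H3K18ac and 9 for H4K12ac, beside 58.7% and 61.4% of all coding genes, and at 4 for H3K18bu and 3 for H4K12bu, beside 20.5% and 33.7%. The 10 mouse windows span 948 kb together, and the median window of all coding genes is 37.2 kb. A longer window has more room for a region. Tead1, Amotl2 and Vgll4 had a shared region of all 4 marks. The share of all coding genes with all 4 was not counted, so this only names the genes. In regions per 100 kb the 10 genes had 3.90 for H3K18ac beside 2.33 over all coding windows, 3.16 beside 2.37 for H4K12ac, 0.738 beside 0.488 for H3K18bu, and 0.422 beside 0.764 for H4K12bu. Of the acetyl regions 5 of 37 and 2 of 30 were shared at a q below 0.05, and of the butyryl regions none. Before overlap was asked for, single mouse libraries listed 14.1 to 20.8 acetyl and 4.64 to 10.3 butyryl regions per 100 kb at these genes. Single CCD841 libraries listed 16.5 to 22.1. Of the mouse regions at these genes, 16.2% to 25.9% overlapped the other replicate for acetyl marks and 4.08% to 14% for butyryl marks.

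**Figure D3:**
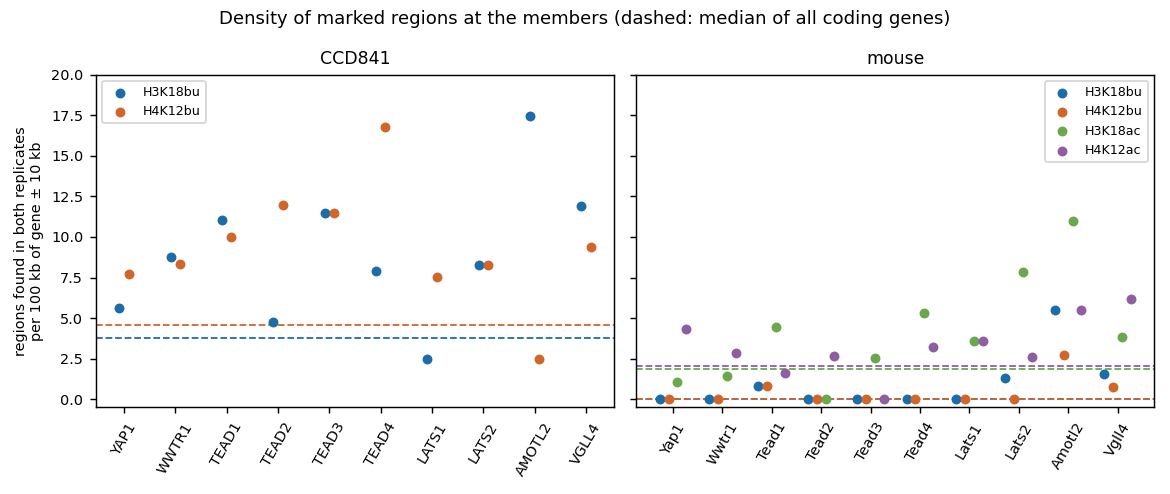
Shared regions per 100 kb of each gene with 10 kb on either side, in CCD841 (left) and mouse large intestine (right), 1 point per gene and mark, with the median of all coding genes for each mark as a dashed line. AMOTL2 reaches 17.4 for H3K18bu in CCD841, and Amotl2 11 for H3K18ac in the mouse.

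Mouse start sites carried acetylation at 4 of the 10 genes for H3K18ac (Wwtr1, Tead4, Lats1 and Amotl2), beside 22.0% of coding genes, and at 5 for H4K12ac (the same genes and Yap1), beside 25.5%. With q below 0.05 these counts were 0 for H3K18ac and 1 for H4K12ac, beside 3.87% and 7.07% of all genes, and with equal numbers of strongest peaks 1 and 1, beside 7.87% and 9.85%. Shared H3K18bu lay at 1 start, that of Amotl2, beside 6.31%, and shared H4K12bu at none, beside 15.4%. The H3K18bu count was 0 with q below 0.05, with equal numbers of strongest peaks and with a pileup of at least 2. The shares of all genes were then 0.0731%, 5.43% and 0.882%. Tead1 and Tead4 have no strand in the table used, and both gene ends were taken as their start. Tead4 had start pileups of 3 and 6 for H3K18ac and of 4 and 5 for H4K12ac, at chr6:128300777-128300913 and chr6:128300783-128300997 (mm10). Yap1 had 3 and 6 for H4K12ac at chr9:8004603-8005078, and H3K18ac peaks of 2 and 3 that did not overlap. The start of Lats1 is shared with Pcmt1, transcribed the other way, where the shared H3K18ac region had pileups of 1 and 1 and the shared H4K12ac region 2 and 2.

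**Figure D4:**
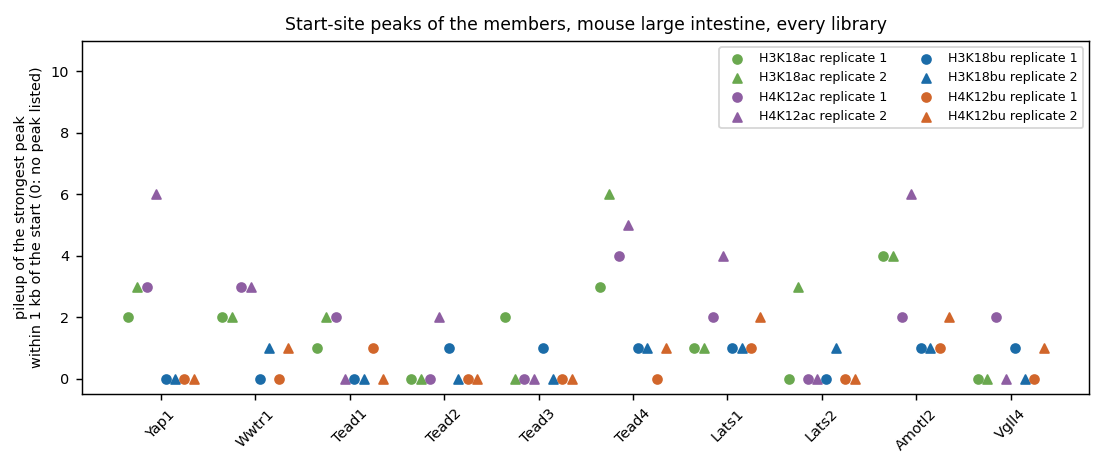
Pileup of the strongest peak within 1 kb of the start of each gene in each of the 8 mouse libraries (circle replicate 1, triangle replicate 2), where 0 means that no peak was listed; for Tead1 and Tead4 both gene ends were used. No butyryl library exceeds a pileup of 2, and the acetyl libraries reach 6 at Yap1, Tead4 and Amotl2. Pileups of different lists are not levels that can be set against each other.

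Counted by library, a peak lay at the start of Amotl2 and of Lats1 in all 8 mouse libraries, which held for 3.39% of coding genes, at Tead4 in 7, at Wwtr1 in 6, and at the other 6 genes in 2 to 4. The median over all coding genes was 3. The butyryl peaks behind these counts had pileups of 1 or 2. At Lats1 they lay at different places in the 2 replicates of each butyryl mark, so no shared butyryl region formed.

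The mouse butyryl regions of these genes lay mostly where at least 1 replicate listed an acetyl peak of the same residue, as did most butyryl regions of the genome. Of the 7 H3K18bu regions 6 overlapped an H3K18ac peak of either replicate, beside 76.1% of all H3K18bu regions, and of the 4 H4K12bu regions 3 overlapped an H4K12ac peak, beside 69.9%. A shared acetyl region was overlapped by 3 of the 7 and 1 of the 4, beside 47.1% and 35.1%. The H3K18bu region in Vgll4 at chr6:114918235-114918510 (mm10), with pileups of 1 and 2, overlapped H3K18ac at chr6:114918274-114918608, with pileups of 5 and 7. In Tead1, H3K18bu at chr7:112710822-112711039 and H4K12bu at chr7:112710647-112710949 overlapped each other and shared H3K18ac at chr7:112710651-112710965, whose pileups were 3 and 5. All 7 shared H3K18bu regions and all 4 shared H4K12bu regions had a pileup of 1 in at least 1 replicate.

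As a share of all regions in its own list, a butyryl library placed more at the 10 genes than an acetyl library of the same residue, but shared regions did not show this order. Per 10000 shared regions, 8.42 lay at these genes for H3K18bu and 8.46 for H3K18ac, and 4.03 for H4K12bu and 7.10 for H4K12ac. In single libraries, H3K18bu had 11.7 and 9.87 regions at these genes per 10000 regions, and H3K18ac 4.92 and 5.50. H4K12bu libraries had 8.64 and 10.2, and H4K12ac libraries 4.47 and 6.62. Per 100 kb, the 10 windows had 2.14 and 1.81 times the regions of all coding windows in the H3K18bu libraries and 1.08 and 1.21 times in the H3K18ac libraries, and 1.42 and 1.67 times for H4K12bu and 1.06 and 1.35 times for H4K12ac. The acetyl lists held 299623 to 299861 peaks and the butyryl lists 50675 to 96432. With the same number of strongest peaks in each list the values were 12.2 and 9.87 against 8.70 and 8.94 at H3K18, and 8.69 and 7.51 against 6.75 and 6.14 at H4K12. With a pileup of at least 2, H3K18bu had 6.53 and 8.46, from 4 and 4 regions, against 9.45 and 9.89 for H3K18ac. H4K12bu then had 9.16 and 12.6, from 4 and 13 regions, against 8.86 and 7.60 for H4K12ac. With a q below 0.05 the H3K18bu lists shrank to 1176 and 744 regions and the H4K12bu lists to 816 and 2246 over the genome, and none lay at these genes. Lists of that length are too short to order the acyl groups at 10 genes.

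AMOTL2 was the 1 gene of the 10 with a shared H3K18bu region at its start in both species, and its promoter, chosen after these values were seen, is shown for that reason. Among all coding genes such a region lay at 31.4% of starts in CCD841 and 6.31% in the mouse, and the share with both was not counted. The mouse region at Amotl2 was lost with q below 0.05, with equal numbers of strongest peaks and with a pileup of at least 2. A start peak in every library was listed for LATS1 and Lats1, and not for AMOTL2, which lacked one in H4K12bu replicate 2. The 250 bases before the start of the principal AMOTL2 transcript lie at chr3:134374448-134374697 (hg38, minus strand), inside the shared H3K18bu region, and those before the start of mouse Amotl2 at chr9:102717554-102717803 (RefSeq, GRCm38.p6, plus strand). Exons of AMOTL2 transcripts without a coding sequence overlap the human window. Both are written 5′ to 3′ along transcription with the TEAD core, here read as CATTCC, in capitals.
AMOTL2, human: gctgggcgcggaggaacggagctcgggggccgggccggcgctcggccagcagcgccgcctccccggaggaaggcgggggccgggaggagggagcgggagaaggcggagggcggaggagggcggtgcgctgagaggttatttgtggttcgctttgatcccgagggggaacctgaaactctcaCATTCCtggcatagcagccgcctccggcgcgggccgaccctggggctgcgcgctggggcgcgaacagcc
Amotl2, mouse: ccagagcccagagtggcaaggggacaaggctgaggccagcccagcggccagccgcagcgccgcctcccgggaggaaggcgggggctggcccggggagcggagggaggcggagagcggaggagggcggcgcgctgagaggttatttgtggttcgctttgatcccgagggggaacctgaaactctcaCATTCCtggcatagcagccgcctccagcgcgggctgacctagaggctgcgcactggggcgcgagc
The core begins at position -69 from the human start and -65 from the mouse start, within a stretch of 82 bases that is identical in the 2 species. Across 12549 genes with the same name in both annotations, the longest identical stretch in this window had a median of 13 bases, and 52 genes had one of at least 82. Peaks overlapping that stretch were listed in 3 of 4 CCD841 libraries, with pileups of 36 and 18 for H3K18bu and 14 for H4K12bu replicate 1. In the mouse they were listed in 5 of 8 libraries: H3K18ac replicate 1 with a pileup of 4, both H4K12ac replicates with 2 and 6, and both H3K18bu replicates with 1 and 1. The H4K12bu peaks of the mouse lay on either side of it.

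**Figure D5:**
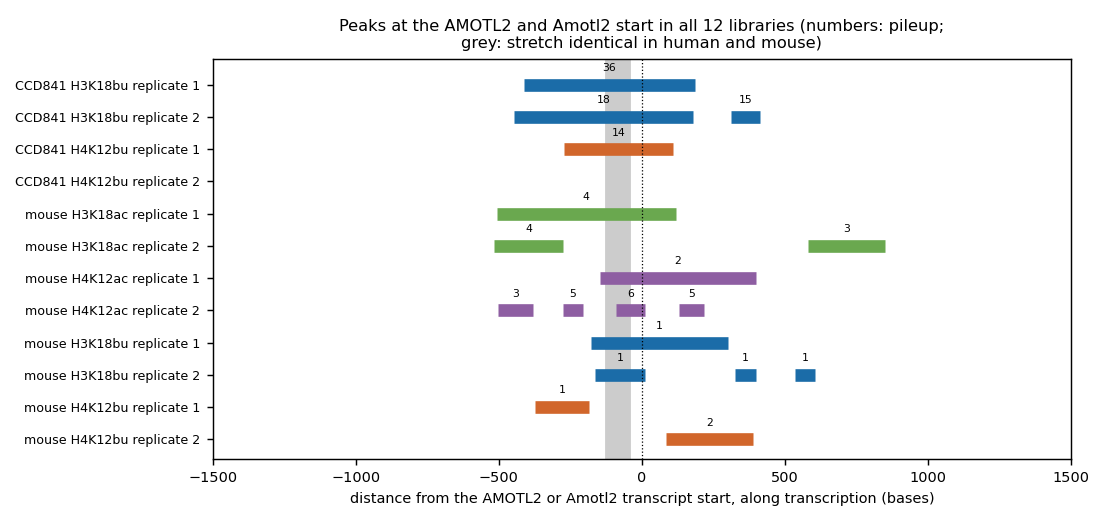
Peaks around the start of AMOTL2 (4 CCD841 libraries) and Amotl2 (8 mouse libraries), with the distance from the transcript start along transcription in bases on the x axis and the pileup above each peak. The grey band is the stretch of 82 identical bases. Both H3K18bu replicates cover the band in either species, and both mouse H4K12bu peaks lie outside it.

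The TEAD core was also looked for before the other starts. In the 250 bases before the principal transcript start it was present in 4 human genes (YAP1, TEAD1, TEAD4 and AMOTL2), beside 9.83% of 19061 human genes. RefSeq gave a mouse promoter for 8 of the 10, not for Tead1 and Tead4, and 5 of these (Yap1, Wwtr1, Tead3, Amotl2 and Vgll4) held the core in at least 1 of their promoters, beside 14.4% of 27025 mouse genes in RefSeq. By promoter this was 7 of 12, beside 12.6% of 32851. The Wwtr1 promoters overlap and hold the same core, so that site enters the 7 more than once. TGANTCA was in the promoter of LATS1 alone in human, beside 4.74%, and in none of the 8 in mouse, beside 7.82% of genes. YAP1 and Yap1 are shown because the core lies there in both species. The human window is chr11:102110197-102110446 (hg38, plus strand), which an antisense non-coding transcript also covers, and the mouse window is chr9:8004597-8004846 (GRCm38.p6, minus strand).
YAP1, human: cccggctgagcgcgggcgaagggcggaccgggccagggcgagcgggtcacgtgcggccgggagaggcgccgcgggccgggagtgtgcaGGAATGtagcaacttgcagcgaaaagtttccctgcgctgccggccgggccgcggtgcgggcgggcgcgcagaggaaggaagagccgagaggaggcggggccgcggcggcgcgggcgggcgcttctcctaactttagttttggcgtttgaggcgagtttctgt
Yap1, mouse: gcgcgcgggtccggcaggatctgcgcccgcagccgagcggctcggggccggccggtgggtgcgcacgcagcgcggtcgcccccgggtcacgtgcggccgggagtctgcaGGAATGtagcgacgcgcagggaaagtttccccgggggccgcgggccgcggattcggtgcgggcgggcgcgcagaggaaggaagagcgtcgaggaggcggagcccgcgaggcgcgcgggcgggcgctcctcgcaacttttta
The identical stretch around the core was 14 bases long. H3K18bu replicate 1, with a pileup of 10, and H4K12bu replicate 2, with a pileup of 5, covered it in CCD841, and in the mouse 1 replicate each of H3K18ac and H4K12ac overlapped it, with pileups of 2 and 6. No butyryl peak of the mouse lay there.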

How the data were processed

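NaBu-treated CCD841 cells (4 libraries) and mouse large intestine (8 libraries) were profiled by CUT&Tag. The submitters' processing notes name bcl2fastq 2.17.1, cutadapt 1.9.1, Bowtie2 2.3.1, MACS2 2.1.0 and the builds hg38 and mm10. Peaks were called by the authors in each library on its own at p 0.01, with at most 300000 kept and blacklisted places removed, as their names and values show, and a control library is not given in the sources used here. For each peak the authors deposited a fold ratio over the local background and −log10 p and −log10 q values from MACS2. The deposited score, a rescaled −log10 p, was not used. Because the lists are full to their limit in 8 libraries, the weakest listed peak depends on depth, which the lists do not give. The pileup was solved from fold and p within 0.01 in Python 3.11.15 with scipy 1.17.1, and the solver and the overlap step were tested on simulated data and against bedtools 2.31.1.

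Genes were those of GENCODE 44 and of RefSeq for mouse, with 4395 mouse coding genes lacking a strand, for which both ends were used as the start. Samples were grouped by the labels. All 10 genes are named, with the 3 strongest of each pathway list at the start for each CCD841 mark, and sequences are 200 bases around the middle of a start region and of the strongest regions with a motif. The genes and lists were chosen with earlier results of these data known. Alternatives were q below 0.05, overlap of at least 50% of the shorter region, equal numbers of strongest peaks, a pileup of at least 2, 1 replicate left out, other windows and other starts. Mouse regions were not searched for motifs, since no mouse genome was used here. The result of 1 further marker list is not reported here.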

Additional observations from a re-analysis of the deposited data

Results flagged for a closer look

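At 2 of the 10 genes the difference between H3K18bu and H4K12bu, as regions per 10000 regions of the library, went one way in every CCD841 library and the other way in every mouse library. Among 15992 coding genes with the same symbol in both species, 7.58% showed such an opposite order. The difference between the species was not tested.

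At WWTR1 the CCD841 libraries had 1.85 and 1.75 regions per 10000 for H3K18bu and 1.74 and 1.42 for H4K12bu, so H3K18bu was higher in each pair. At Wwtr1 the mouse libraries had 0.165 and 0.197 for H3K18bu and 0.393 and 0.519 for H4K12bu, so H4K12bu was higher. The mouse values of Wwtr1 rest on 1 and 1 regions for H3K18bu and 2 and 5 for H4K12bu, all with a pileup of 1, and the CCD841 values of 1.75 and 1.74 lie almost together.

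At LATS2 the CCD841 libraries had 0.711 and 0.873 for H3K18bu and 0.966 and 0.884 for H4K12bu. At Lats2 the mouse libraries had 0.987 and 0.987 for H3K18bu and 0.786 and 0.830 for H4K12bu. The mouse values of Lats2 rest on 6 and 5 regions for H3K18bu and 4 and 8 for H4K12bu, nearly all with a pileup of 1. Within a group of 2 libraries it cannot be told which of them stands apart. The CCD841 values of both genes include H4K12bu replicate 2, which stood apart from the other CCD841 libraries in its share of regions with a q below 0.05.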

How the results depend on the processing

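Of 158 values recomputed under another setting, 98 were classed as the same, 57 moved and 3 changed sign. Counts classed as the same stayed within 1.5 times the reported count. Shares were classed more loosely. With 300 bases searched, TGANTCA was in 14.4% of the H4K12bu regions at these genes and not 8.80%, a change classed as the same. Over all H4K12bu regions that share was 11.7% and not 8.35%. In CCD841 the limits on q, pileup and peak number removed almost nothing from the H3K18bu lists, and windows were marked at all 10 genes, so these settings say little about those counts. H4K12bu at starts, reported at 2 genes, was at 1 with q below 0.05 and at 6 with any annotated transcript start, where the shares of all coding genes were 11% and 35.5% and not 14.7%. The share of H3K18bu regions overlapping H4K12bu was 77.9% with a peak in either replicate, and the share of H4K12bu regions 70.4%, or 56.0% with q below 0.05. In the mouse, q below 0.05 left 5 shared H3K18ac regions, 2 of H4K12ac and 0 of either butyryl mark. Genes with H3K18ac then fell to 0 at starts and 3 in windows, those with H4K12ac to 1 and 2, and those with H3K18bu to 0 and 0, and H4K12bu in windows to 0. The shares of all coding genes fell as well, to 3.87% and 16.5%, 7.07% and 16.8%, 0.0731% and 0.498%, and 1.7%. With equal numbers of strongest peaks, H3K18ac had 10 regions and 1 start, H4K12ac 3 regions, 1 start and 3 windows, H3K18bu 4 regions and 0 starts, and H4K12bu 2 regions. All coding genes then had H3K18ac at 7.87% of starts, H4K12ac at 9.85% of starts and 23.8% of windows and H3K18bu at 5.43% of starts. With a pileup of at least 2, H3K18bu had 0 regions, 0 starts and 0 windows and H4K12bu 0 regions and 0 windows, beside 0.882% of starts and 3.84% of windows for H3K18bu and 8.33% of windows for H4K12bu over all genes. With the larger overlap H3K18ac was at 2 starts, beside 18.8% of all, and with both ends of every mouse gene, a setting chosen after seeing the data, H4K12bu was at 1 start, beside 16.4%.

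The mouse difference in regions per 10000, butyryl minus acetyl, was 5.57 at H3K18 and 3.86 at H4K12. It was 2.24 and 1.66 with equal numbers of strongest peaks, -9.74 and -6.98 with q below 0.05, and -2.18 at H3K18 with a pileup of at least 2. The q setting leaves 744 to 2246 butyryl regions over the genome and 0 at these genes, and the pileup setting leaves 4 and 4 H3K18bu regions at them, so these changes of sign rest on few or no regions and set no order.

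With 1 replicate left out no overlap is asked for, so regions rose to 219 to 228 for H3K18bu and 257 to 292 for H4K12bu in CCD841, and in the mouse to 147 to 164 for H3K18ac, 50 to 71 for H3K18bu, 134 to 197 for H4K12ac and 44 to 98 for H4K12bu. Genes marked at the start were then 4 to 5 for H4K12bu in CCD841 and, in the mouse, 7 in either case for H3K18ac, 5 to 6 for H3K18bu and 3 to 5 for H4K12bu. Mouse windows with a region were 8 to 10 for H3K18bu and 10 in either case for H4K12bu. Over all genes, in the same order, the start shares were 27.4% and 27.8%, 47.2% and 49.6%, 20.8% and 23.3%, and 41.3% and 28.3%, and the window shares 58% and 63.3% and 78.1% and 66.5%. No paired analysis was possible because the labels do not say which of the 2 mice gave which library, the CCD841 numbers name no shared culture, and no test was made. In the mouse butyryl lists 89.2% to 91.4% of peaks have a pileup of 1, which limits what their counts can show.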
